A study of Mus musculus with 6 samples.

Results

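Early neural lineage genes are the genes by which the passage from a pluripotent cell to a neural progenitor and then to a young neuron is usually followed. The set described here holds 9 symbols, Nes, Ncam1, Sox1, Pax6, Sox11, Neurog2, Fabp7, Hes5 and Elavl3, found by exact match among the 23420 gene symbols of the count table. All 9 had a row. The samples were mouse embryonic stem (ES) cells in self-renewing medium, stably transduced with a lentivirus for wild-type KBP (3 libraries, replicates 1, 2 and 3) or for KBP(KK/RR) (3 libraries, replicates 4, 5 and 6). KBP is the Kif1-binding protein, a partner of kinesin motors, and the labels call the mutant stable. Both groups carried a virus, no cells without one were part of the design, and the sources used here do not name the promoter of the virus. The labels do not say whether the 3 libraries of a group came from separate cultures. The p-values set a group difference against a spread estimated between these libraries and moderated across genes, and that spread may be technical.

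In the embryo, Sox1 and Pax6 encode transcription factors of the neural plate and neural progenitors, and Nes encodes nestin, an intermediate filament protein of progenitor cells. Notch signalling helps keep progenitors from differentiating: a cleaved Notch receptor joins the DNA-binding protein RBPJ and switches on repressor genes such as Hes5, which hold back proneural genes such as Neurog2. Sox11, Ncam1 and Elavl3 are carried into young neurons, and Fabp7 marks radial glia, the stem cells of the developing cortex. ES cells in self-renewing medium are not neural cells, and low amounts of some of these RNAs are commonly seen in them.

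Totals ran from 24131743 to 32160411 counts per library. On the first principal component (31.1% of the variance) the groups separated, and on the second (20.8%) wild-type KBP replicate 3 stood apart from the other 5 libraries, so results are also given without it where it matters. The ES cell label was borne out by its markers: all 16 pluripotency markers were measured, with summed levels of 7884 to 8010 CPM (counts per 1000000, scaled by TMM factors) in wild-type KBP and 7688 to 7993 in KBP(KK/RR). Among markers of other cell types, 9 of 10 for mature neurons passed the filter on low counts but summed to only 32.3 to 33.8 and 32.5 to 36.2 CPM. The 10 astrocyte and oligodendrocyte markers summed to 13.1 to 16.3 and 14.9 to 17.0 CPM, with Aqp4 at 0 in every library. The KBP gene, listed as 2510003E04Rik, measured 48.3 ± 1.30 CPM (SD, n = 3) with wild-type KBP and 56.6 ± 2.88 CPM (SD, n = 3) with KBP(KK/RR). This gene was called higher in KBP(KK/RR) (log2 fold change 0.23, SE 0.05, edgeR adjusted p = 0.0133, at most 0.0908 over the alternatives), and its groups did not overlap. The table does not separate the endogenous gene from the virus, and the part of this difference in the members' values was not tested.

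The members fell into a group of 6 that was transcribed at low to moderate levels in these ES cells and a group of 3, Fabp7, Hes5 and Neurog2, with almost no reads. The progenitor and neuronal genes of the set were thus transcribed where the Notch effector, the radial glia marker and the proneural factor had at most 4 counts in any library. Between wild-type KBP and KBP(KK/RR) the differences were small, with folds from 0.859 to 1.09, and 1 member, Ncam1, passed the test. The 6 transcribed members passed the filter on low counts and were tested, and the other 3 were not tested.

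**Figure D1:**
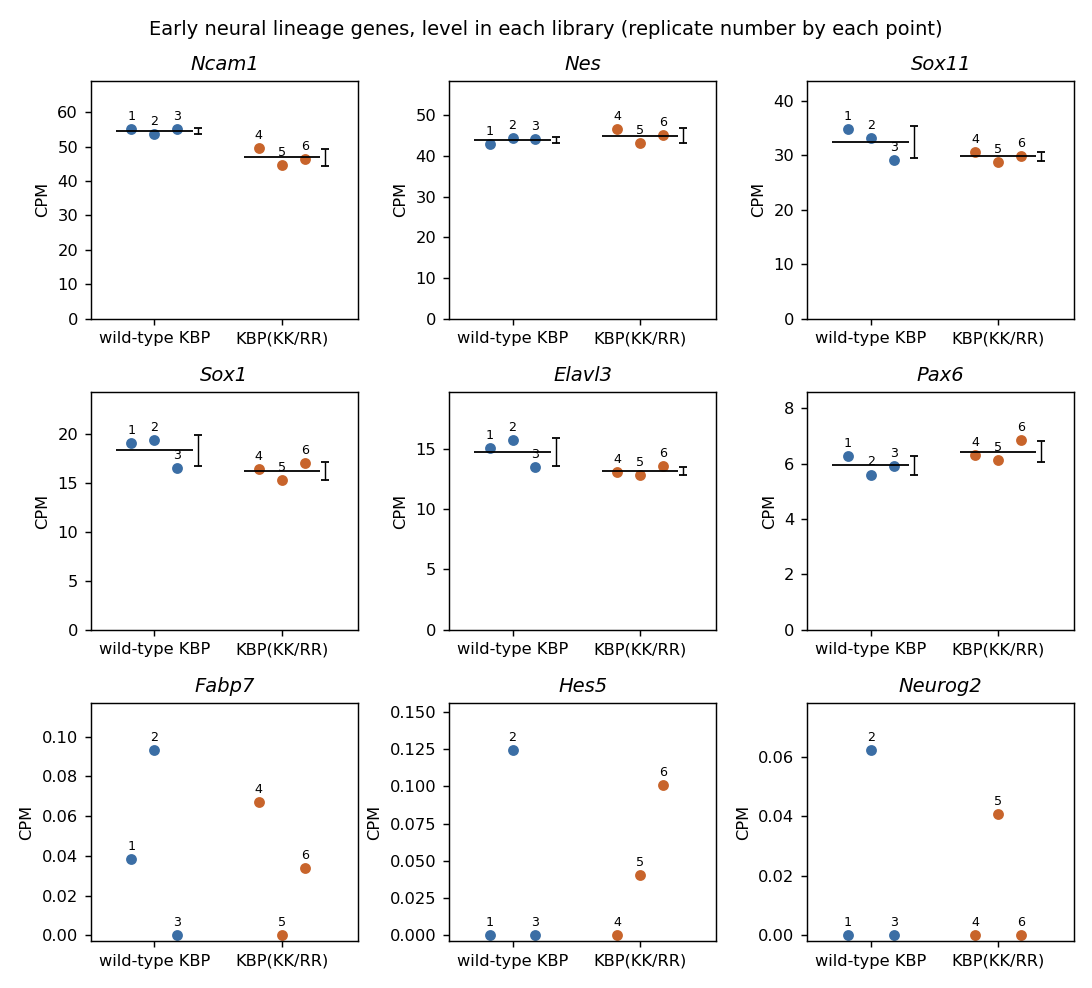
Level of each of the 9 genes in CPM in each library, with the replicate number beside each point; horizontal lines are group means and bars are SD (n = 3), drawn for the 6 tested genes. Ncam1 is the gene whose groups do not overlap, replicate 3 lies with the KBP(KK/RR) libraries for Sox11, Sox1 and Elavl3, and Fabp7, Hes5 and Neurog2 have libraries at 0.

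Levels were compared between genes per length, as CPM per kb of the longest GENCODE transcript. Over the 6 libraries Ncam1 measured 7.73 ± 0.696 (SD) and Nes 7.25 ± 0.229 CPM per kb, and the ranges of this pair overlapped. Sox11 followed at 3.74 ± 0.291 and Sox1 at 3.57 ± 0.337 CPM per kb, again with overlapping ranges. Below them came Elavl3 at 2.78 ± 0.233 and Pax6 at 1.40 ± 0.0956 CPM per kb, each with a range apart from its neighbours. Ranked among 18814 symbols with a length and at least 1 count, these 6 lay between percentile 43.4 (Pax6) and percentile 64.6 (Ncam1). Pax6 was 31.7 times the level of the next member, Fabp7, at 0.0441 CPM per kb. For scale, the pluripotency factor Pou5f1 measured 1059 and Sox2, a pluripotency factor that is also a neural progenitor factor, 191 CPM per kb.

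**Figure D2:**
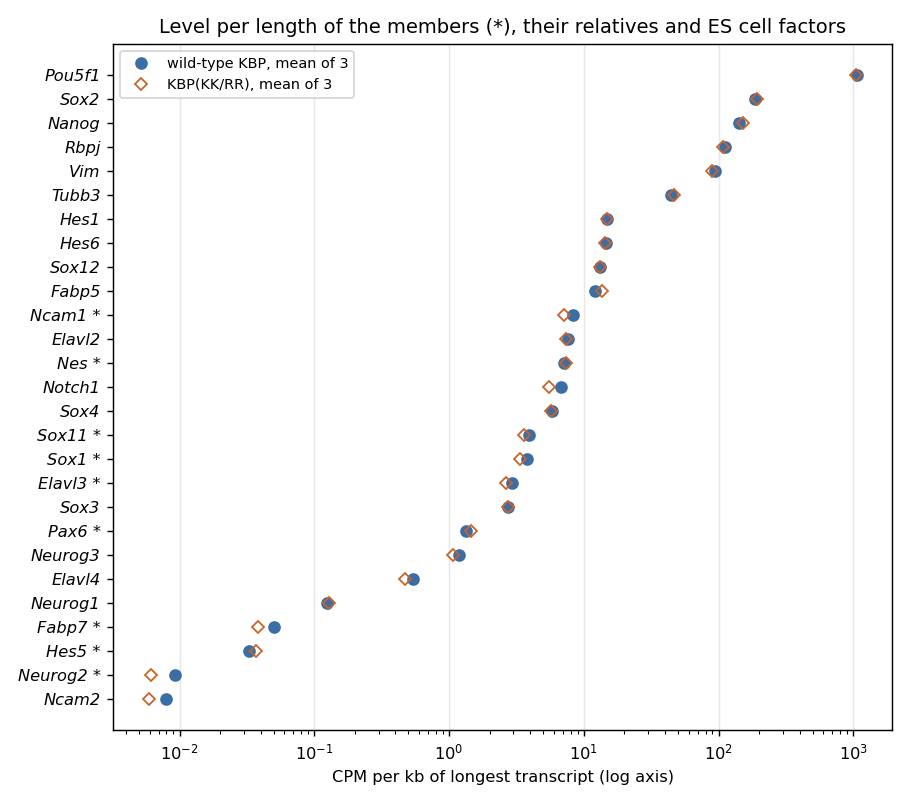
Mean level per kb of the longest transcript (log axis) in wild-type KBP (filled circles) and KBP(KK/RR) (open diamonds), 3 libraries each, for the members (starred), relatives from their gene families or pathway, Vim and Tubb3, and the ES cell factors Pou5f1, Nanog and Sox2. The 6 transcribed members lie between 1 and 10 CPM per kb, and Fabp7, Hes5 and Neurog2 below 0.1.

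The near-silent members included the clearest readout of Notch activity in the set. Hes5 (chromosome 4, 154960626 to 154962372 on GRCm38.p6) had 0, 4 and 0 counts in wild-type KBP replicates 1, 2 and 3 and 0, 1 and 3 counts in KBP(KK/RR) replicates 4, 5 and 6. Reads were present in 3 of 6 libraries and in both groups. Gm20421, a transcript annotated on the opposite strand (154960770 to 154961678), overlaps Hes5 and is not listed in the count table. How reads in that overlap were handled is not stated. Its pooled level was 0.0486 CPM (95% exact Poisson interval 0.0133 to 0.125, counting error only) against 0.0476 CPM (0.0130 to 0.122), a ratio of 0.979 with a 95% interval of 0.182 to 5.26. Changes of several-fold in either direction were therefore not detectable for this gene at this depth.

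Hes5 is shown with its promoter because the RBPJ recognition sequence is present there while the transcript was nearly absent. Promoter windows of 300 bases, 250 before and 50 after the start, were available for 8 of the 9 members from RefSeq (GRCm38.p6). GTGGGAA was searched on both strands and had 2 matches in Hes5 and in no other member's window, against 6.38% of all 32851 windows. Positions are counted from the start that the window uses, 154960923, which lies inside the RefSeq gene span given above, so both sites also lie inside that span. They begin 226 and 83 bases before 154960923, and are printed with flanks on the gene's strand, with the motif in capitals (the first is the reverse complement).
Hes5 promoter, chr4:154960686-154960715: gggcgagcgcgTTCCCACagcccggacatt
Hes5 promoter, chr4:154960829-154960858: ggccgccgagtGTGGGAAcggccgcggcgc
A match is a description of the letters and not a measured binding site.

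Fabp7 (chromosome 10, 57784923 to 57788450), which encodes a brain fatty acid binding protein, had 1, 3 and 0 counts in wild-type KBP replicates 1, 2 and 3. In KBP(KK/RR) replicates 4, 5 and 6 it had 2, 0 and 1 counts. The groups overlapped, and the pooled ratio was 0.734 (95% interval 0.108 to 4.34). Neurog2 (chromosome 3, 127632733 to 127635636), a proneural basic helix-loop-helix factor gene, had 0, 2 and 0 counts against 0, 1 and 0. Its 3 reads in all gave a ratio of 0.489 with a 95% interval of 0.00830 to 9.40. Of all symbols in the table, 24.7% had as few counts over the 6 libraries as Neurog2 or fewer, and 28.8% as few as Hes5 or fewer.

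The promoters of the members differed in CpG content. Observed over expected CpG was 1.07 for Sox1, 1.04 for Hes5, 0.922 for Elavl3, 0.817 for Sox11 and 0.702 for Nes. Pax6 has a pair of windows, at 0.698 and 0.998. Neurog2 had 0.570 and Fabp7 0.276, at percentile 62.3 and 39.1 of all windows. The near-silent genes thus held both one of the most CpG-rich windows, that of Hes5 at percentile 95.8, and the poorest among the members, that of Fabp7. Sequence before the start is printed for a transcribed and a near-silent member, with CG in capitals, ending before the first base annotated as transcribed by RefSeq or GENCODE.
Nes, chr3:87970843-87971077, plus strand: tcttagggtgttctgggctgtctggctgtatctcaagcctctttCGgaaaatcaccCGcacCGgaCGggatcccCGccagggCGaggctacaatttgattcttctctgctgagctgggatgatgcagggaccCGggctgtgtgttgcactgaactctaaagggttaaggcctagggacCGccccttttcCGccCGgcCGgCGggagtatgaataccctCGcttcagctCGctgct
Fabp7, chr10:57784673-57784880, plus strand: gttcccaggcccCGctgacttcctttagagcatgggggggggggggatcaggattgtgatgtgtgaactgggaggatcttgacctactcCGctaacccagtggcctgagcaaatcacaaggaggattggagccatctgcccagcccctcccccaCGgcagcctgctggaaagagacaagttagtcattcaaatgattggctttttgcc
The Nes stretch holds 14 CG in 235 bases and the Fabp7 stretch 3 in 208.

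The comparison of the groups asked how transcript levels in cells given KBP(KK/RR) differ from those in cells given the wild-type protein. It was made over all 14340 genes that passed the filter with edgeR's quasi-likelihood test and Benjamini-Hochberg adjusted p-values. Of these genes 3.12% were called at an adjusted p under 0.05, 1.05% higher and 2.07% lower in KBP(KK/RR). The split was 151 higher and 297 lower, and 235 and 205 with upper-quartile scaling. Of the 6 tested members 0 were higher and 1 was lower, and 3 had an unadjusted p under 0.05, as had 18.6% of all genes tested. Their median log2 fold change was -0.15, against -0.00224 over all genes tested, with 4 of 6 negative against 50.8% of all genes. The members' median was -0.08 with a trend on transcript length and GC content removed from each library. In bulk RNA, fewer cells that hold a transcript and less of it per cell cannot be told apart.

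**Figure D3:**
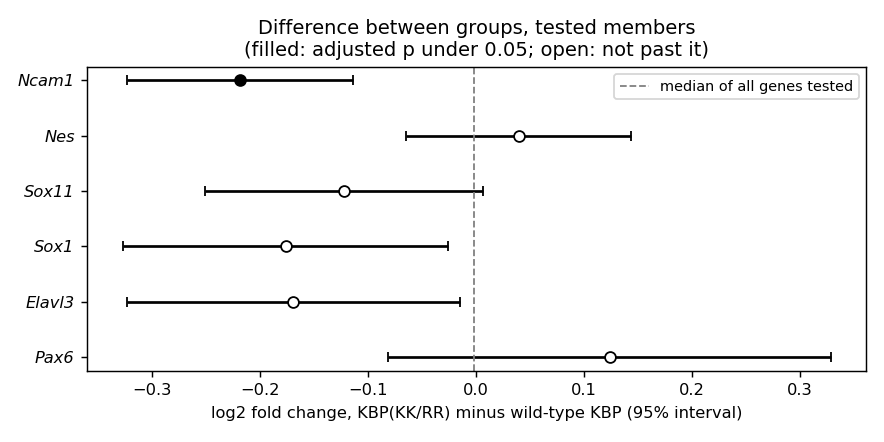
Log2 fold change of the 6 tested members, KBP(KK/RR) minus wild-type KBP, with 95% intervals from the edgeR fit; the dashed line is the median of all genes tested. Ncam1 at -0.22 is the gene past the threshold, and the intervals of Sox1 and Elavl3 lie below 0 while their adjusted p do not pass.

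Ncam1 was the member that fell. It encodes the neural cell adhesion molecule, an immunoglobulin-family surface protein (chromosome 9, 49502129 to 49799393). Wild-type KBP replicates 1, 2 and 3 measured 55.3, 53.6 and 55.0 CPM, and KBP(KK/RR) replicates 4, 5 and 6 measured 49.7, 44.7 and 46.3 CPM. Every KBP(KK/RR) library was below every wild-type library, as in 10.5% of all genes tested. The means were 54.6 ± 0.887 and 46.9 ± 2.55 CPM (SD, n = 3 each), a log2 fold change of -0.22 (SE 0.05, edgeR adjusted p = 0.0185) or 0.859-fold (95% interval 0.799 to 0.924).

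The spread of Ncam1 was 1.62% of the mean in wild-type KBP and 5.43% in KBP(KK/RR), where counting error alone gives 2.59% and 2.76%. The edgeR adjusted p was above 0.05 without wild-type KBP replicate 1 (0.0537) or 2 (0.0574) or without KBP(KK/RR) replicate 5 (0.0853) or 6 (0.109). Leaving out the other libraries kept it under 0.05 (0.0468 for wild-type KBP replicate 3 and 0.00301 for KBP(KK/RR) replicate 4). Over all alternatives the log2 fold change ran from -0.26 to -0.16 and the adjusted p from 0.00192 to 0.109. An antisense transcript inside the gene, Gm11149, had at most 1 count in any library.

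**Figure D4:**
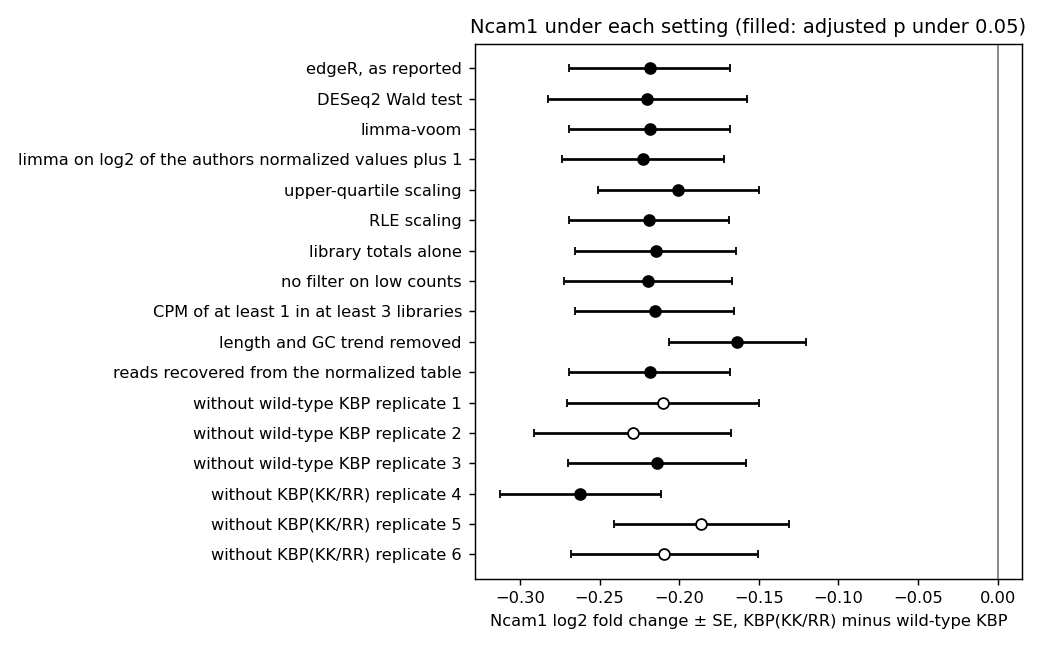
Log2 fold change of Ncam1 ± SE under the reported fit and each alternative test, scaling, filter and left-out library; filled points have an adjusted p under 0.05. All values lie between -0.26 and -0.16, and the open points are 4 of the 6 fits with a library left out.

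The genes whose profile over the 6 libraries was most like that of Ncam1 were Slc4a2, an anion exchanger gene, Emp1, an epithelial membrane protein gene, and Camkk2, a calmodulin-dependent kinase kinase gene. Likeness was the root mean square difference of log2 CPM centred on each gene's mean, which was 0.0265, 0.0304 and 0.0307 for these 3. Their log2 fold changes were all -0.22, which follows from choosing them by closeness to Ncam1 over the same 6 libraries. Among 9570 genes ranked this way, the nearest other member was Elavl3 at rank 1292 (0.0945), and Nes stood at rank 4579 (0.133).

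The SOX genes and Elavl3 had fitted folds of 0.885 to 0.919 in KBP(KK/RR) against wild-type KBP, and none passed the adjusted threshold. Sox1 (chromosome 8, 12395519 to 12399555) measured 19.1, 19.4 and 16.5 CPM in wild-type KBP replicates 1, 2 and 3 and 16.4, 15.2 and 17.0 CPM in KBP(KK/RR) replicates 4, 5 and 6. Wild-type replicates 1 and 2 were the highest libraries, and replicate 3 lay within the KBP(KK/RR) range. The difference was 0.885-fold, or -0.18 on the log2 scale (SE 0.07, edgeR adjusted p = 0.191) (95% interval 0.797 to 0.982). Sox1ot, a long noncoding gene on the same strand that spans Sox1 and is listed as Gm5607, had a log2 fold change of -0.10 (SE 0.18, edgeR adjusted p = 0.817), and the handling of reads in the overlap is not stated.

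Sox11 (chromosome 12, 27334268 to 27342718), a SOXC factor gene of differentiating neurons, measured 34.9, 33.1 and 29.1 CPM in wild-type KBP against 30.6, 28.8 and 29.9 CPM in KBP(KK/RR). Replicate 3 again fell among the KBP(KK/RR) libraries. The difference was 0.919-fold, or -0.12 on the log2 scale (SE 0.06, edgeR adjusted p = 0.296) (95% interval 0.840 to 1.004).

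Elavl3 (chromosome 9, 22015005 to 22052146), the gene for the neuronal RNA-binding protein HuC, measured 15.0, 15.8 and 13.5 CPM against 13.1, 12.9 and 13.6 CPM. Its groups overlapped through wild-type replicate 3 and KBP(KK/RR) replicate 6. Gm49318, annotated on the same strand, overlaps Elavl3 and is not listed in the count table. The difference was 0.889-fold, or -0.17 on the log2 scale (SE 0.07, edgeR adjusted p = 0.222) (95% interval 0.799 to 0.989).

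Wild-type KBP replicate 3 was low for all 3 of these genes. It lay below the mean of replicates 1 and 2 by a log2 difference of -0.22 for Sox1, -0.22 for Sox11 and -0.19 for Elavl3, at percentile 9.40, 9.34 and 11.2 of that difference over all genes tested. For Ncam1 and Nes the same difference was 0.01 and 0.02. Without that library the log2 fold changes were -0.24 for Sox1, -0.19 for Sox11 and -0.23 for Elavl3, and the edgeR adjusted p were 0.0878, 0.108 and 0.131. Leaving out other wild-type libraries made the values smaller: Sox11 was -0.07 (edgeR adjusted p = 0.659) without replicate 1, and Sox1 was -0.13 (0.548) and Elavl3 -0.11 (0.621) without replicate 2. With the length and GC trend removed they were -0.12, -0.04 and -0.14. The part of that library, or of length and GC content, in these values was not tested further.

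Nes and Pax6 were the tested members with positive values, and neither passed the threshold. Nes (chromosome 3, 87971093 to 87980451) measured 42.9, 44.3 and 44.2 CPM in wild-type KBP and 46.7, 43.1 and 45.2 CPM in KBP(KK/RR). The libraries interleaved, with a log2 fold change of 0.04 (SE 0.05, edgeR adjusted p = 0.720) or 1.03-fold. The 95% interval of 0.956 to 1.10 allows a small fall or a small rise. With the trend on length and GC content removed the value was 0.12 (edgeR adjusted p = 0.133). Pax6 (chromosome 2, 105668896 to 105698410), a paired-box factor gene of neural and eye progenitors, measured 6.28, 5.61 and 5.92 CPM against 6.32, 6.12 and 6.87 CPM. The groups overlapped, with wild-type replicate 1 inside the KBP(KK/RR) range, and the fold was 1.09 (95% interval 0.945 to 1.26, edgeR adjusted p = 0.532). Its antisense gene Pax6os1 had 0 counts in all libraries.

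For 7 of the members, Nes and Pax6 excepted, relatives of the gene family were chosen after the values were seen. Fabp5, an epidermal fatty acid binding protein gene, measured 12.9 CPM per kb where Fabp7 measured 0.0441, and Hes1, a Hes gene active in many tissues, 14.9 CPM per kb where Hes5 measured 0.0349. Neurog3 measured 1.13 and Neurog1 0.127 CPM per kb, against 0.00772 for Neurog2. Conversely, Ncam2 was near silent at 0.00693 CPM per kb beside Ncam1 at 7.73. The SOXC relatives Sox12 and Sox4 measured 13.2 and 5.73 CPM per kb, both above Sox11, and the neuronal Elavl relatives Elavl2 and Elavl4 measured 7.48 and 0.507, above and below Elavl3. Sox3, the other SOXB1 gene beside Sox1 and Sox2, measured 2.74 CPM per kb. None of these relatives was called between the groups in the reported fit among those tested. Fabp5 was nearest, at a log2 fold change of 0.18 (SE 0.05, edgeR adjusted p = 0.0557, from 0.0270 to 0.171 over the alternatives).

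The Notch pathway was transcribed although Hes5 was nearly absent. Of 36 pathway genes listed, 32 passed the filter, among them (named after their values were seen) the receptor genes Notch1 (64.4 ± 8.78 against 52.7 ± 4.65 CPM, SD, n = 3 each) and Notch3 (130 ± 13.8 against 123 ± 6.18 CPM). Rbpj, the gene for the DNA-binding partner of cleaved Notch, measured 609 ± 13.4 and 594 ± 27.8 CPM, and Hes1 21.9 ± 0.413 and 21.8 ± 1.04 CPM. Between the groups edgeR called 0 of the 32 and limma-voom 0, with 6 at an unadjusted edgeR p under 0.05. Of all genes tested, edgeR called 3.12%, and 18.6% had an unadjusted p under 0.05. DESeq2 gave an adjusted p to 20 of the 36 and called 0 of those. The edgeR count was 4 with no filter on low counts, 2 with the length and GC trend removed, 2 when replicate 1 was left out, and 1 when replicate 3 or 5 was. The median log2 fold change of the list was -0.06, with 24 of 32 negative, against 50.8% of all genes tested. The smallest p were those of the ligand gene Dll1 (log2 fold change 0.30, SE 0.10, edgeR adjusted p = 0.0857), the receptor gene Notch4 (-0.21, SE 0.07, 0.1003) and the gamma-secretase subunit gene Psenen (-0.17, SE 0.06, 0.113). Over the alternatives their adjusted p ran from 0.0259 to 0.297, 0.0173 to 0.530 and 0.0230 to 0.400. For Notch1 (-0.29, edgeR adjusted p = 0.274) it ran from 0.000123 to 0.544. For the receptor gene Notch2 (-0.28, 0.317, named after its value was seen) it ran from 0.00161 to 0.599.

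Whether other neural progenitor genes were called turned on the setting. Of 31 listed, 23 were tested, with a median log2 fold change of -0.01. Both edgeR and limma-voom called 0, where edgeR called 3.12% of all genes tested. An unadjusted edgeR p under 0.05 was found for 7 of the 23, against 18.6% of all genes tested. DESeq2 gave an adjusted p to 8 of the 31 and called 0 of those. The edgeR count was 2 with upper-quartile scaling, 1 with library totals alone, 3 with the length and GC trend removed and 4 with no filter. Prom1, which encodes prominin-1 of progenitor membranes, was nearest (5.44, 6.64 and 6.30 CPM in wild-type KBP against 8.13, 7.23 and 8.11 CPM in KBP(KK/RR), log2 fold change 0.35, edgeR adjusted p = 0.0521). The glutamate transporter gene Slc1a3 measured 20.2, 21.5 and 20.7 CPM against 16.7, 18.7 and 17.8 CPM (-0.23, edgeR adjusted p = 0.0527). For both genes the groups did not overlap, as for 22.4% of all genes tested in either direction, and their values went opposite ways.

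Proneural and neuronal genes were without a call in the reported fit. Of 39 listed, 31 were tested, with a median log2 fold change of -0.02. Both edgeR and limma-voom called 0, where edgeR called 3.12% of all genes tested. An unadjusted edgeR p under 0.05 was found for 5 of the 31, against 18.6% of all genes tested. DESeq2 gave an adjusted p to 12 of the 39 and called 0 of those, and edgeR called 2 with the length and GC trend removed. The microtubule-associated protein gene Map2 (7.67 ± 0.154 against 9.03 ± 0.329 CPM, log2 fold change 0.24), the heavy neurofilament gene Nefh (92.5 ± 2.75 against 99.9 ± 1.41 CPM, 0.11) and the neuronal splicing factor gene Rbfox3 (0.680 ± 0.134 against 1.03 ± 0.191 CPM, 0.58) had the smallest p, with edgeR adjusted p of 0.130, 0.168 and 0.222.

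Among 26 tested of 34 neural adhesion and guidance genes, the group to which Ncam1 is related, 1 rose and 1 fell. Of all genes tested, 1.05% rose and 2.07% fell. The median log2 fold change of the list was -0.04, and 8 of the 26 had an unadjusted edgeR p under 0.05, against 18.6% of all genes tested. Bcam, a laminin-binding immunoglobulin-family adhesion gene that is not specific to neural cells, measured 347, 326 and 368 CPM against 285, 308 and 312 CPM (log2 fold change -0.20, SE 0.05, edgeR adjusted p = 0.0167). Sdk2, a sidekick adhesion gene of synaptic layers in the retina, measured 3.98, 5.48 and 5.34 CPM against 7.33, 6.86 and 6.50 CPM (0.48, SE 0.11, 0.0238). The edgeR adjusted p of Bcam was 0.0705 without wild-type KBP replicate 3, and that of Sdk2 was 0.104 without wild-type KBP replicate 1, 0.0622 without KBP(KK/RR) replicate 5 and 0.0649 without replicate 6. St8sia2, whose enzyme adds polysialic acid to NCAM (named after its value was seen), had 48 counts over the 6 libraries and did not pass the filter.

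**Figure D5:**
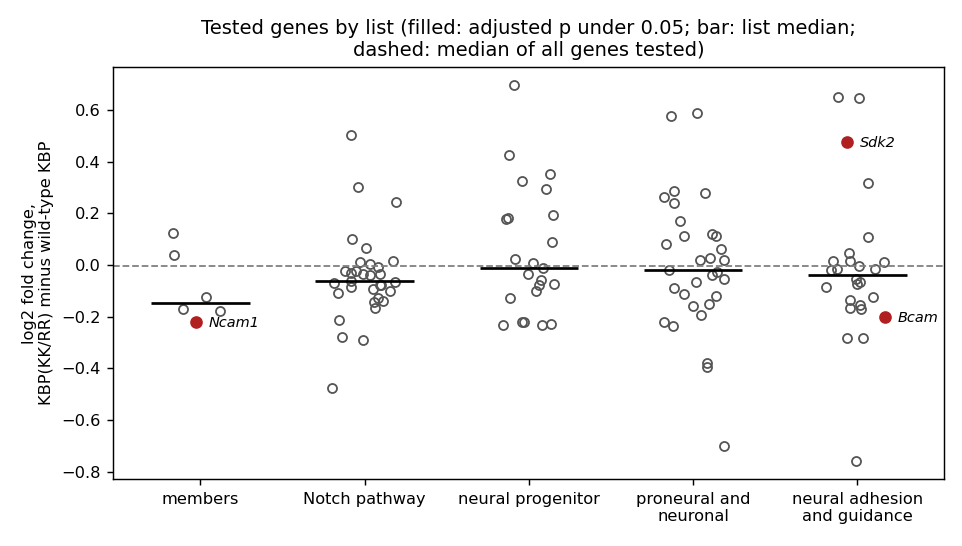
Log2 fold change of every tested gene in the members and the 4 surrounding lists, with list medians (bars) and the median of all genes tested (dashed). Filled and named points passed the threshold: Ncam1 and Bcam on the lower side and Sdk2 on the higher side.

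Of the 16 pluripotency markers, 0 rose and 2 fell, where 1.05% of all genes tested rose and 2.07% fell. The counts were 2 and 2 with upper-quartile scaling or with no filter on low counts. They were 1 and 2 with the length and GC trend removed or without KBP(KK/RR) replicate 4. Values were positive for 6 of the 16, and Dppa3 (log2 fold change 0.56, edgeR adjusted p = 0.0538) and Klf2 (0.17, 0.0656) were nearest to a call. Tfcp2l1, a transcription factor gene of naive ES cells, measured 320, 336 and 338 CPM in wild-type KBP against 293, 263 and 258 CPM in KBP(KK/RR) (log2 fold change -0.29, SE 0.05, edgeR adjusted p = 0.000828). Klf5, a Kruppel-like factor gene, measured 135, 128 and 138 CPM against 113, 114 and 120 CPM (-0.21, SE 0.04, 0.00844). The groups did not overlap for either gene, nor for Esrrb and Klf4, with KBP(KK/RR) lower, as in 10.5% of all genes tested. Nor did they overlap for Nanog, Klf2, Dppa3 and Dppa5a, with KBP(KK/RR) higher, as in 11.8%. The core factors gave no call: Pou5f1 measured 1451 ± 58.9 and 1435 ± 55.8 CPM, Nanog 313 ± 9.93 and 334 ± 9.61 CPM and Sox2 386 ± 14.3 and 400 ± 21.9 CPM (SD, n = 3 each), with edgeR adjusted p of 0.865, 0.191 and 0.566. Markers of primitive endoderm, another cell type of ES cultures, summed to 325 to 402 CPM in wild-type KBP and 254 to 303 CPM in KBP(KK/RR). Of the 10 tested, 9 had negative values, against 50.8% of all genes tested, and 2 were called lower (Col4a1 and Pdgfra). Ttr was at 0 and Foxa2 under the filter. The count called lower was 0 when any 1 of replicates 3, 5 and 6 was left out, 1 when replicate 2 was and 4 when replicate 1 was. Lama1 (mean 227 against 161 CPM) and Col4a1 (111 against 92.9 CPM) made up most of the primitive endoderm sums. Gata6 (1.31 against 1.16 CPM), Gata4 (4.62 against 4.05 CPM) and Sox17 (0.509 against 0.517 CPM) were low and not called. Mesendoderm markers summed to 15.4 to 16.8 CPM against 18.0 to 21.3 CPM. Values were positive for 6 of 7 tested, down to 0.00156 for Tbx6, where 7058 of all 14340 genes tested were positive. Mesp1 went the other way (log2 fold change -0.61). The brachyury gene T was called higher (4.56, 4.77 and 3.79 against 6.02, 5.88 and 6.63 CPM, log2 fold change 0.49, SE 0.11, edgeR adjusted p = 0.0168). The mesendoderm call was lost when replicate 3 or 6 was left out. The fibroblast markers summed to 50.6 to 57.2 against 57.2 to 59.8 CPM, and 5 of the 12 did not pass the filter. Of the 7 tested, 5 were positive and 2, Col1a1 and Pdgfrb, were negative. The call was 1, the actin-binding protein gene Tagln, higher in KBP(KK/RR) (0.23, SE 0.06, edgeR adjusted p = 0.0379, up to 0.255 over the alternatives). Tagln was also the largest part of these sums (mean 28.2 against 33.1 CPM). The part of these other cell types in the members' values was not tested.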

How the data were processed

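RiboZero removed ribosomal RNA and ScriptSeq v2 served for the libraries, per the labels' protocols. The submitters' processing notes name bcl2fastq, TopHat, HTSeq and DESeq2 and the builds mm10 and GRCm38. Which annotation, strand setting and filters were used is not given in the sources used here. Deposited raw counts are whole reads per gene symbol, and the deposited normalized signal is, by its values, each count divided by 1 factor per library. Of the values above 0 in that signal, 100% came out as whole reads within 0.01. These reads differed from the deposited raw counts in 0 values, so the test on them had to call the same 448 genes.

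Raw counts were tested with edgeR 4.0.16 in R 4.3.3 (filterByExpr, TMM, robust quasi-likelihood fit, group as the term), over 14340 genes and all 6 libraries, with calls at an adjusted p under 0.05. SE was taken as the size of the log2 fold change over the square root of F. Alternatives used DESeq2 1.42.0, limma 3.58.1, other scalings, filters and thresholds, each library left out, and splines with 5 degrees of freedom on length and GC content. The procedure was tested on simulated data. Lengths are of the longest GENCODE M21 transcript, matched for 23025 of 23420 symbols. Members and lists were chosen with earlier results of these data known. Named genes are the members, called genes of each list or else up to 3 with the smallest p, the 3 genes most like the member of highest CPM, the KBP gene, and Pou5f1, Nanog and Sox2. The log2 scale for likeness and for library differences used CPM plus 0.1, and likeness covered genes with a mean of at least 3. Intervals on counts cover counting error only. Depth limits Fabp7, Hes5 and Neurog2 most.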

Additional observations from a re-analysis of the deposited data

How the results depend on the processing

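No paired analysis was made because the labels give no pairing between the groups (replicates 1, 2 and 3 against 4, 5 and 6). Each of the 6 tested members kept the sign of its log2 fold change under every alternative run. The number of members called was 1, fell to 0 at an adjusted p threshold of 0.01, and ranged from 0 to 1 with a library left out; the calls lost then were those of Ncam1, with fewer libraries in the fit. The number of genes called over the whole table, 448, was 966 with no filter on low counts, 702 with the trend on length and GC content removed, 130 at a threshold of 0.01 and 823 at 0.1, and ranged from 122 (without KBP(KK/RR) replicate 6) to 767 (without replicate 4), with 174 and 277 without wild-type KBP replicates 2 and 3 and 281 without KBP(KK/RR) replicate 5. In the 4 surrounding lists together 2 genes were called, 1 with DESeq2, 4 with upper-quartile scaling, 11 with no filter, 10 with the trend removed, 0 at 0.01 and 8 at 0.1, and 1 to 3 with a library left out. The cause of these differences was not tested. The test on the recovered reads was added after seeing the data. Those reads were equal to the raw counts, so its calls had to be the same and it is no separate check. DESeq2 gave no adjusted p to Pax6. At 3 to 8 counts in all, Neurog2, Fabp7 and Hes5 could show only very large differences.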
